A study of Mus musculus with 4 samples.

Results

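The core genes of Wnt and β-catenin signalling were followed in mouse heart RNA-seq after Tbx20 overexpression. They were chosen by name as 8 of the 23439 genes of the series-wide expression table, and all 8 were present. Total RNA came from the hearts of mice aged 12 weeks, with 2 hearts in each group and 1 library from each heart. Controls carried alphaMHCMerCreMer+/-, in which the alpha myosin heavy chain promoter drives a Cre recombinase regulated by tamoxifen in cardiomyocytes. Hearts of the other group carried alphaMHCMerCreMer+/- together with the transgene CAGCATTbx20 and are called Tbx20_OE. Every heart therefore carried the Cre. Tbx20, which encodes a T-box factor needed in heart development, was switched on at 8 weeks of age, and tissue was taken 4 weeks later. The sources used here do not give the strain, the sex, the inducing agent or whether controls received it.

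In the canonical Wnt pathway a Wnt protein binds a Frizzled receptor together with the co-receptor Lrp5 or Lrp6. Without Wnt, β-catenin, encoded by Ctnnb1, is bound by a destruction complex built on Apc and an Axin protein, phosphorylated by casein kinase 1 and Gsk3b, and degraded. With Wnt, β-catenin is spared, enters the nucleus and switches on target genes with TCF proteins such as Tcf7l2. In cardiomyocytes β-catenin also has a structural role, linking N-cadherin to the actin cytoskeleton at the intercalated disc. Most of this regulation acts on proteins, which were not measured. Axin2 differs from the other core genes in being itself a widely used transcriptional target of the pathway.

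Promoter windows of 2 genes are shown, because Axin2 is the transcriptional readout among these genes and Ctnnb1 the member whose level varied most between libraries apart from Axin2. Both are from RefSeq on GRCm38.p6, run from 250 bases before the gene's start to 50 bases after it, and are written 5′ to 3′ on the + strand, which is the strand of both genes.
Axin2, chr11:108920099-108920398: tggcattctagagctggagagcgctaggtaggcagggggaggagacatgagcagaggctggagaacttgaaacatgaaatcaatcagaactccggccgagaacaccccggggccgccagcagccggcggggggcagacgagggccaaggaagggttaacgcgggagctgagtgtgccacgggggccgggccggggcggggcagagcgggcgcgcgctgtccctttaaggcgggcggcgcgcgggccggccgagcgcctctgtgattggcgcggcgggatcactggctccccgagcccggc
Ctnnb1, chr9:120933150-120933449: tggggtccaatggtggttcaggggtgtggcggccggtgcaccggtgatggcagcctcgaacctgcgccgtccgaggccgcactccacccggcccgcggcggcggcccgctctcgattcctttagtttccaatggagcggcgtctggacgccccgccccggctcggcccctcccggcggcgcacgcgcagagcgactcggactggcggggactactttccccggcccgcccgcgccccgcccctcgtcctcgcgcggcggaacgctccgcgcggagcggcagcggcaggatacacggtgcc
Capitals would mark the TCF/LEF core CTTTGAT or the T-box half-site GGTGTGA on either strand, and neither window held one. Only these exact letters were searched, so variants of them, and sites outside the windows, would be missed. Across 32851 promoter windows of this length the table gave the TCF/LEF letters in 3.73% and the T-box letters in 3.98%. Windows of 4 of the 8 genes were searched, namely Axin2, Ctnnb1, Gsk3b and Tcf7l2, and none of their 6 windows held either motif. No window of Apc, Axin1, Lrp5 or Lrp6 was searched, so the presence of either motif there is unknown. The Axin2 window was 70% G and C and the Ctnnb1 window 75.3%.

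Levels are in FPKM, which divides the fragments of a gene by transcript length and by the library's mapped fragments, so genes of different lengths can be compared, while the number of reads behind a value is unknown. Tbx20 itself measured 6.99 and 4.58 FPKM in control replicates 1 and 2, against 11.03 and 16.4 FPKM in Tbx20_OE replicates 1 and 2. It did not pass the test over all genes (log2 fold change 1.11, 95% interval 0.37 to 1.86, limma unadjusted p = 0.0113, adjusted p = 0.848). Tbx20 is among the higher genes the authors selected, with a ratio of 2.02 in their deposited table (cuffdiff q = 0.911). The log2 fold change of Tbx20 was 1.37 without control replicate 1 and 0.86 without control replicate 2. Pairs of values below follow this order of replicates. Cardiomyocyte markers summed to between 18850 and 20970 FPKM in the 4 libraries, and none of the 5 was at 0. Control replicate 2 stood apart. On the log2(FPKM + 1) scale its correlation with the other libraries across genes was 0.927 to 0.957, against 0.981 to 0.982 among the rest. Its 5 atrial muscle markers summed to 3698 FPKM, against 128 FPKM in control replicate 1 and 132 to 239 FPKM in Tbx20_OE, and all 5 were highest there. Of these markers Mybphl and Sln were listed at 0 in Tbx20_OE replicate 2. The 5 epicardial and mesothelial markers summed to 27.0 FPKM there and to at most 4.30 FPKM elsewhere, with 4 highest and 1 lowest in that library. In bulk tissue, fewer cells of a type and less RNA per cell cannot be told apart. Of the other cell types, 5 endothelial markers summed to 61.1 FPKM in control replicate 2, where 4 of them were lowest, and to 87.0 to 97.3 FPKM elsewhere. Sums of fibroblast markers (344 and 304 FPKM in the controls, 452 and 368 FPKM in Tbx20_OE) and of smooth muscle and pericyte markers (95.02 and 80.6 FPKM, then 149 and 134.5 FPKM) were higher in both Tbx20_OE libraries. By marker, both Tbx20_OE libraries lay above both controls for 2 of 5 fibroblast markers and below for 0. The counts were also 2 and 0 of 5 for cardiomyocyte and for endothelial markers. For smooth muscle and pericyte markers the counts were 3 and 1 of 5. Macrophage markers summed to 169 and 146 FPKM in the controls and to 205 and 128 FPKM in Tbx20_OE, with counts of 0 and 0 of 5. Over all genes with a mean of at least 1 FPKM the shares were 28.1% and 4.77%. The part of these shifts in the results below was not tested.

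The 8 genes covered a wide range of levels. Ctnnb1 was by far the most abundant, at a mean of 69.4 FPKM over the 4 libraries, 13.5 times the next gene, and its level lay above 87.2% to 93.6% of tested genes in each library. Lrp5 followed at 5.13 FPKM, then Gsk3b at 3.93, Axin1 at 3.91, Lrp6 at 2.70, Apc at 1.89 and Tcf7l2 at 1.82 FPKM, with Axin2 last at 0.399 FPKM. The top and the bottom of this order were clear, since Ctnnb1 lay above Lrp5 and Tcf7l2 above Axin2 without overlap of their ranges. The 5 neighbouring pairs between them overlapped in range. Within a library the order was firmer, with Lrp5 above Gsk3b, Axin1 above Lrp6 and Lrp6 above Apc in 4 of 4 libraries. Gsk3b and Axin1 changed places, with Gsk3b above Axin1 in 2 of 4 libraries, and Apc was above Tcf7l2 in 3 of 4.

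**Figure D1:**
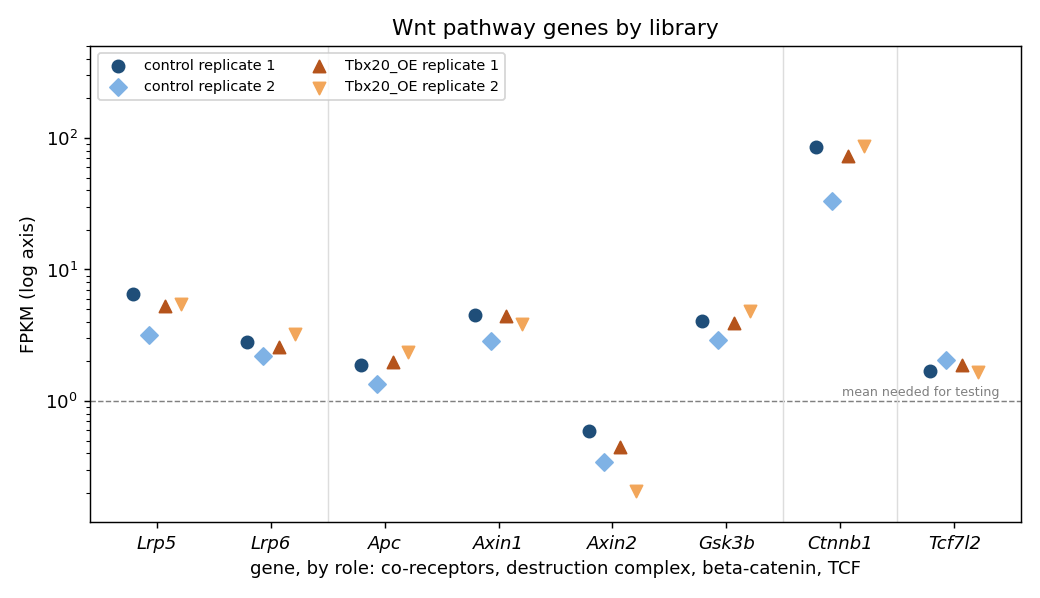
FPKM on a log axis (y) for the 8 core Wnt pathway genes (x), 1 point per library with no averaging. Ctnnb1 lies between 33.3 and 86.3 FPKM and Axin2 between 0.206 and 0.597 FPKM, and control replicate 2 (diamonds) is the lowest library for 6 of the 8 genes.

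The comparison of Tbx20_OE with control asks which transcripts differ 4 weeks after induction. The test was limma's moderated test on log2(FPKM + 1), over the 10513 genes with a mean of at least 1 FPKM. Axin2 did not reach that mean, so 7 of the 8 genes were tested. None of the 7 passed (limma, Benjamini-Hochberg adjusted p from 0.848 to 0.954), and 0 had an unadjusted p under 0.05. Over all tested genes 2 passed, which is 0.019%, and 1.52% had an unadjusted p under 0.05. For 1 of the 7, Apc, both Tbx20_OE libraries lay above both controls, and for 0 did both lie below. Across all tested genes the same held for 28.1% above and 4.77% below. Nothing in these counts sets the core genes apart from the transcriptome. The smallest two-sided p of an exact permutation test of 2 libraries against 2 is 0.333.

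The fold change was positive for 6 of the 7 genes, with a median of 0.18 on the log2 scale. The median over all tested genes was 0.15. After median centring the medians were 0.02 for the 7 and -0.01 for all, and Axin1 and Lrp6 then had values just below 0. Without control replicate 2 the median of the 7 was 0.03, against 0.08 over all genes. Without control replicate 1 it was 0.43, against 0.21. The 95% intervals (limma) of 6 genes lay within 2-fold either way, as did those of 68.5% of all tested genes, and Ctnnb1 was the exception. With a pseudocount of 0.1, which shrinks low genes less, 3 of the 7 intervals lay within 2-fold, as did 47.8% over all tested genes.

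**Figure D2:**
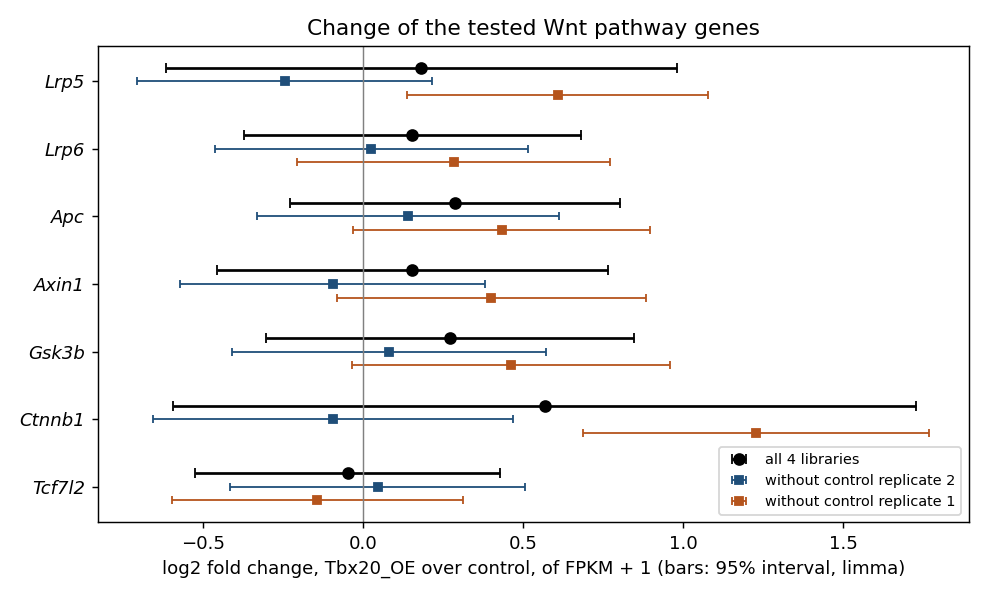
The x axis gives the log2 fold change of FPKM + 1, Tbx20_OE over control, for the 7 tested core genes (y), with 95% limma intervals, from all 4 libraries and without either control library. Ctnnb1 moves from 1.23 without control replicate 1 to -0.09 without control replicate 2, and every interval from all 4 libraries includes 0.

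The co-receptors Lrp5 and Lrp6 are related single-pass membrane proteins whose intracellular tails are phosphorylated when Wnt binds. Lrp5, on chromosome 19 from 3584825 to 3686564 of mm10, measured 6.56 and 3.19 FPKM in the controls, against 5.31 and 5.47 FPKM in Tbx20_OE. Both Tbx20_OE values lay between the 2 controls. Its mean was 4.88 ± 2.38 FPKM for control and 5.39 ± 0.113 FPKM for Tbx20_OE (SD, n = 2), a log2 fold change of 0.18 (standard error 0.32, 95% interval -0.62 to 0.98, limma adjusted p = 0.891). Without control replicate 2 the sign turned, at -0.24. Lrp6, on chromosome 6 from 134446478 to 134566913, measured 2.81 and 2.19 FPKM in the controls, against 2.59 and 3.21 FPKM in Tbx20_OE. Its libraries interleaved, and the difference was smaller than its standard error (log2 0.15, standard error 0.21, limma adjusted p = 0.868), with a value of 0.03 without control replicate 2 and of -0.12 after correction for GC content.

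Lrp5 exceeded Lrp6 in every library. The ratio of Lrp5 to Lrp6 was 2.33 and 1.45 in control and 2.05 and 1.71 in Tbx20_OE, so the Tbx20_OE ratios lay inside the range of the controls. Such a ratio within a library does not depend on a scaling factor common to all genes of that library.

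Among the destruction complex genes, Apc encodes the large scaffold lost in many colorectal tumours. Apc, on chromosome 18 from 34220984 to 34322190, measured 1.87 and 1.34 FPKM in the controls, against 1.99 and 2.35 FPKM in Tbx20_OE. The Tbx20_OE libraries were both above the controls, but replicate 1 exceeded the nearer control by 1.06-fold only. The log2 fold change of Apc was 0.29 (standard error 0.21, 95% interval -0.23 to 0.80, limma adjusted p = 0.848), 0.14 without control replicate 2, 0.13 after median centring and 0.01 after GC correction.

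Axin1 and Axin2 are the interchangeable scaffolds on which the complex assembles. Axin1, on chromosome 17 from 26138686 to 26195811, measured 4.48 and 2.88 FPKM in the controls, against 4.43 and 3.85 FPKM in Tbx20_OE. The groups overlapped, and the log2 fold change of 0.15 (standard error 0.24, limma adjusted p = 0.881) became -0.09 without control replicate 2. Axin2, on chromosome 11 from 108920349 to 108950781, measured 0.597 and 0.346 FPKM in the controls, against 0.447 and 0.206 FPKM in Tbx20_OE. The lowest value belonged to Tbx20_OE replicate 2, and Tbx20_OE replicate 1 lay between the controls, so the groups overlapped. Among the 3447 genes with a mean from 0.1 to under 1 FPKM the groups did not overlap for 32.6%, with Tbx20_OE above for 23.8% and below for 8.73%. The Axin2 mean was 0.472 ± 0.177 FPKM for control and 0.327 ± 0.171 FPKM for Tbx20_OE (SD, n = 2), a log2 difference of -0.15 with a pseudocount of 1 and of -0.45 with a pseudocount of 0.1. Tested with a pseudocount of 1 and no filter on low values, it had a 95% interval of -0.53 to 0.23 (limma adjusted p = 0.859). Its level was low in all 4 libraries, above 44.8% to 52.3% of all genes of the table. The GENCODE M21 annotation places exons of Gm11670 on the opposite strand over Axin2 exons, and the strand setting is unknown, so their reads cannot be told apart.

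Axin1 was the more abundant scaffold in every library. The ratio of Axin1 to Axin2 was 7.50 and 8.33 in control and 9.91 and 18.7 in Tbx20_OE. Both Tbx20_OE ratios were above both control ratios, with most of the distance in Tbx20_OE replicate 2, where Axin2 was lowest. The mean log2 ratio was 2.98 ± 0.11 in control and 3.77 ± 0.65 in Tbx20_OE (SD, n = 2), and this difference was not tested.

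Gsk3b encodes the kinase that marks β-catenin for degradation and that Akt signalling can also inhibit. Gsk3b, on chromosome 16 from 38089001 to 38246079, measured 4.07 and 2.89 FPKM in the controls, against 3.95 and 4.80 FPKM in Tbx20_OE. Control replicate 1 lay between the Tbx20_OE libraries, so the groups overlapped. The log2 fold change of Gsk3b was 0.27 (standard error 0.23, 95% interval -0.30 to 0.85, limma adjusted p = 0.848), and it was 0.08 without control replicate 2 and -0.0017 after GC correction. Its paralogue Gsk3a was more abundant, and the ratio of Gsk3b to Gsk3a was 0.166 and 0.122 in control and 0.179 and 0.189 in Tbx20_OE. Both Tbx20_OE ratios were above both control ratios, the lowest was that of control replicate 2, and the difference was not tested. Transcript GC content was 46.1% for Gsk3b and 59.8% for Gsk3a. After GC correction, which also rescales each library, the log2 fold changes were -0.0017 for Gsk3b and 0.015 for Gsk3a. The part of GC content in this ratio was not tested. The ratio of Apc to Axin1 was 0.418 and 0.466 in control and 0.450 and 0.611 in Tbx20_OE, with overlapping groups.

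**Figure D3:**
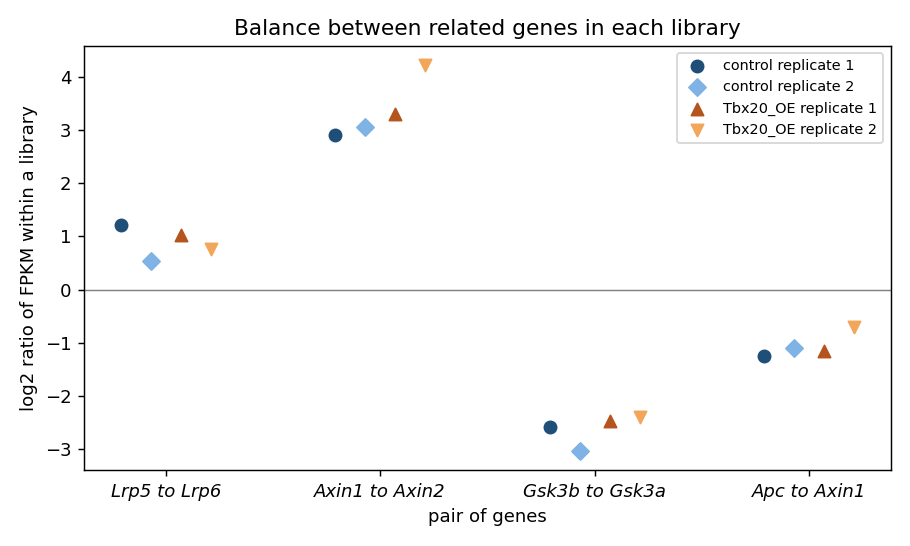
The y axis gives the log2 ratio of FPKM within each library for 4 pairs of related genes (x), 1 point per library. Lrp5 to Lrp6 and Axin1 to Axin2 stay above 0 and Gsk3b to Gsk3a and Apc to Axin1 below 0 in all 4 libraries.

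Ctnnb1 encodes β-catenin, the effector of the pathway and a component of the adherens junction. Ctnnb1, on chromosome 9 from 120933400 to 120960507, measured 84.8 and 33.3 FPKM in the controls, against 73.0 and 86.3 FPKM in Tbx20_OE. A single library, control replicate 2, was low, at 0.393 times control replicate 1, while the other 3 lay within 0.24 of each other on the log2 scale. Means were 59.0 ± 36.4 FPKM for control and 79.7 ± 9.41 FPKM for Tbx20_OE (SD, n = 2). The log2 fold change was 0.57 (standard error 0.46, 95% interval -0.59 to 1.73, limma adjusted p = 0.848). Without control replicate 1, which leaves replicate 2 as the lone control and assumes that it varies like the Tbx20_OE libraries, Ctnnb1 passed (log2 1.23, limma adjusted p = 0.0267), as did 11.4% of all tested genes in the same direction. Without control replicate 2 it was at -0.09 (95% interval -0.66 to 0.47, limma adjusted p = 1). Exons of Ulk4 on the opposite strand and of Mir7090 overlap exons of Ctnnb1 in GENCODE M21.

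Tcf7l2 encodes a TCF protein, one of those that carry β-catenin to DNA. Tcf7l2, on chromosome 19 from 55741810 to 55933655, measured 1.68 and 2.05 FPKM in the controls, against 1.87 and 1.67 FPKM in Tbx20_OE. It varied least of the 8 genes, 1.23-fold between its lowest and highest library, and was the one member highest in control replicate 2. Its log2 fold change was -0.05 (standard error 0.19, 95% interval -0.52 to 0.43, limma adjusted p = 0.954), and 0.05 without control replicate 2. After rescaling it was lower, at -0.21 with median centring, -0.18 with quantile normalization and -0.30 after GC correction.

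Low values in control replicate 2 ran through the group. Of the 7 tested genes, 6 were lowest in that library, against 54.3% of all tested genes, and the median distance from the mean of the other 3 libraries was -0.43 on the log2 scale, against -0.19 over all tested genes. The distances ranged from -1.26 for Ctnnb1 and -0.69 for Lrp5 to -0.27 for Lrp6 and 0.16 for Tcf7l2. Across 10029 tested genes the deviation of control replicate 2 from the mean of the libraries went with transcript GC content, with a Spearman rho of 0.45, a description across genes of 1 library. The core transcripts ranged from 44.3% GC for Apc to 56.6% for Axin1, and Ctnnb1, at 50.3%, was in the middle of that range. The part of atrial tissue and of GC content in these low values was not tested.

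In the authors' deposited comparison, made with cuffdiff, none of the 8 genes was called significant (q = 0.999 for each), and 0 of them are in the authors' selected lists of 65 higher and 150 lower genes. The authors' deposited table gave Ctnnb1 93.1 FPKM for control and 112 FPKM for Tbx20_OE, a ratio of 1.20, the highest of the 8. Here and below, the authors' FPKM are values per condition and not means of the library values. For Ctnnb1 their control value lay above both control libraries, at 84.8 and 33.3 FPKM, so the 2 kinds of level are not directly comparable. The authors' deposited table gave Axin2 0.750 and 0.498 FPKM, a ratio of 0.664, the lowest, followed by Tcf7l2 with a ratio of 0.752. For Lrp6 the authors' deposited table had a ratio of 0.946, below 1, where the FPKM of single libraries gave a positive fold change. The authors' deposited enrichment of lower genes holds 2 terms that name Wnt among 942, 1 on non-canonical and 1 on planar cell polarity signalling, and each rests on Gpc3 alone. Of the 225 terms for higher genes 0 name Wnt or catenin.

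The wider pathway was described with 109 further genes in 8 lists by role, all in the table, of which 57 reached the filter. None of the 57 passed over all genes by limma, and 1, Ccnd1, had an unadjusted p under 0.05. Both Tbx20_OE libraries lay above both controls for 14 and below for 3, against 28.1% and 4.77% of all tested genes. The median log2 fold change was 0.15, as over all genes, and -0.01 for both after median centring. Without control replicate 1 the limma test called 6 of the 57, while 13.6% of all genes were called, and without control replicate 2 it called 0, against 0.209% of all genes. The 6 were Ccnd1, Fzd4, Csnk1a1, Wif1, Dkk3 and Tle2, and of these Dkk3 and Tle2 were chosen after their values were seen. Tle2, a Groucho corepressor, was highest in control replicate 2, with 1.81 and 5.08 FPKM in the controls, against 2.29 and 2.38 FPKM in Tbx20_OE.

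**Figure D4:**
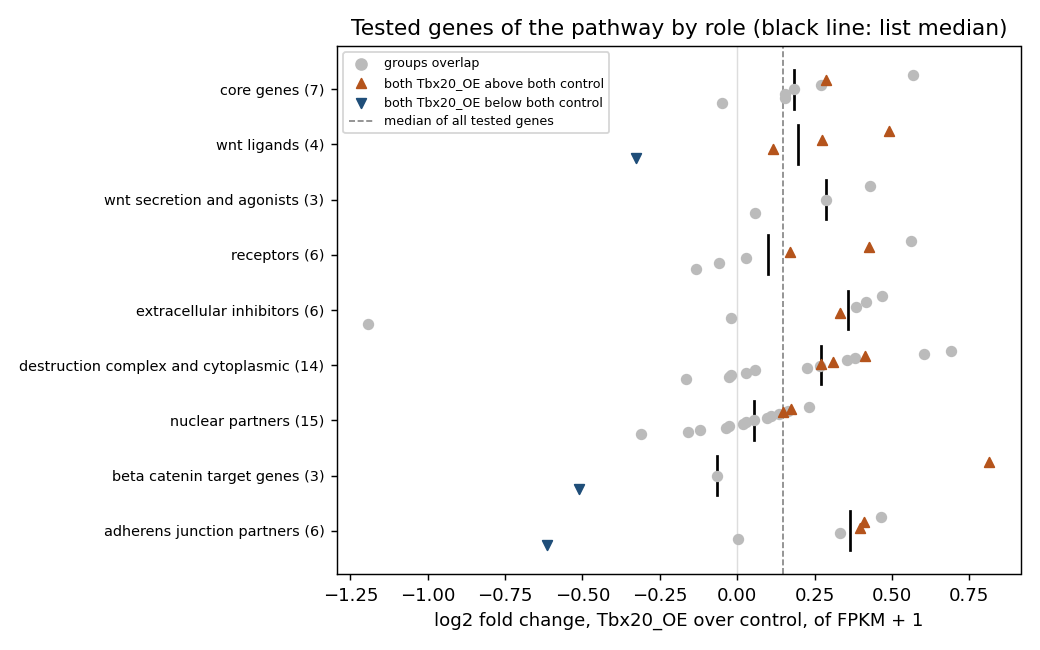
Log2 fold change of FPKM + 1, Tbx20_OE over control (x), for the 7 tested core genes and the 57 tested genes of 8 role lists (y), 1 point per gene, with the number tested in brackets. List medians (black lines) lie from -0.06 for the target genes to 0.37 for the junction partners, around the median of 0.15 for all tested genes (dashed).

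Wnt ligands were scarce. Of 19 ligand genes 4 reached a mean of 1 FPKM and 2 were listed at 0 in all libraries, and 0 of the 4 passed. Wnt11 and Wnt9a had the highest means. Wnt9a measured 1.63 and 2.11 FPKM in the controls, against 1.46 and 1.11 FPKM in Tbx20_OE, lower in both (log2 -0.33, standard error 0.20, and -0.21 without control replicate 2). Wnt5b measured 0.890 and 1.36 FPKM in the controls, against 1.92 and 2.02 FPKM in Tbx20_OE (log2 0.49, standard error 0.20). Wnt5a and Wnt11, ligands best known for β-catenin-independent signalling, had log2 fold changes of 0.28 and 0.12 with groups that did not overlap. Wnt5a was at 0.20 without control replicate 2, 0.11 after median centring and 0.03 after GC correction. Wnt11 was at 0.19 without control replicate 2 but turned to -0.05 after median centring and -0.0066 with quantile normalization. Of the 9 genes for Wnt release and R-spondin signals 3 were tested and 0 passed. Among them Wls, which escorts Wnt proteins to the cell surface, measured 12.0 and 7.11 FPKM in the controls, against 11.6 and 14.3 FPKM in Tbx20_OE, and Lgr4, an R-spondin receptor, had a log2 fold change of 0.29 with overlapping groups. Without control replicate 2 the log2 fold change of Lgr4 was 0.02, and that of Wls went from 0.43 to 0.09.

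Receptors other than Lrp5 and Lrp6 showed no call in 6 tested of 14. Ryk, a Wnt-binding receptor related to tyrosine kinases, was the most abundant and measured 10.8 and 10.4 FPKM in the controls, against 12.0 and 12.2 FPKM in Tbx20_OE (log2 0.17, standard error 0.20), and it turned to -0.08 after GC correction. Fzd4, the receptor for Norrin as well as Wnt, measured 5.66 and 1.80 FPKM in the controls, against 4.11 and 6.97 FPKM in Tbx20_OE. Its low value was in control replicate 2, and its log2 fold change of 0.56 was -0.06 without that library. Fzd6 measured 3.40 and 2.40 FPKM in the controls, against 4.19 FPKM in both Tbx20_OE libraries (log2 0.43, standard error 0.22, limma adjusted p = 0.848), and its log2 fold change was 0.24 without control replicate 2.

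Secreted inhibitors and their partners had 6 tested genes of 14, with 0 passing. Kremen1, a Dickkopf receptor, was the most abundant and measured 15.4 and 9.92 FPKM in the controls, against 13.7 and 20.7 FPKM in Tbx20_OE. Sfrp1 and Frzb, which bind Wnt proteins, had log2 fold changes of 0.38 and 0.33, and the groups overlapped for Sfrp1 and not for Frzb. Without control replicate 2 the log2 fold changes were 0.12 for Kremen1, from 0.42, and 0.18 for Frzb. Dkk3, a member of the Dickkopf family, measured 0.290 and 14.0 FPKM in the controls, against 1.16 and 0.717 FPKM in Tbx20_OE. Nearly all of its control mean came from replicate 2, and the log2 fold change of Dkk3 was -1.19 over all libraries and 0.58 without that library. The authors' deposited table called Dkk3 significantly lower in Tbx20_OE, at 12.7 FPKM for control and 1.43 FPKM for Tbx20_OE (cuffdiff q = 0.0222).

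Cytoplasmic regulators had 14 tested genes of 19, with 0 passing and a median log2 fold change of 0.27, which was 0.04 without control replicate 2. The casein kinase gene Csnk1a1, whose product primes β-catenin for Gsk3b, measured 35.9 and 12.6 FPKM in the controls, against 28.3 and 43.8 FPKM in Tbx20_OE. As for Ctnnb1, the low value was in control replicate 2, and the log2 fold change of 0.69 was -0.03 without it. Csnk1g2 was level in all libraries, between 32.0 and 34.5 FPKM. The groups did not overlap for Dvl3, a Dishevelled adaptor, for Btrc, the ubiquitin ligase subunit that recognises phosphorylated β-catenin, and for Csnk1d, with log2 fold changes of 0.41, 0.31 and 0.27, which were 0.26, 0.15 and 0.16 without control replicate 2. For Dvl3 the nearest libraries were almost level, at 2.58 FPKM in control replicate 1 and 2.59 FPKM in Tbx20_OE replicate 1.

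Nuclear partners had 15 tested genes of 16, with 0 passing and a median log2 fold change of 0.05. Ctbp1, a corepressor, was the most abundant, between 50.6 and 55.5 FPKM, with a log2 fold change of 0.03 that turned negative with each rescaling tried (-0.13 after median centring, -0.10 with quantile normalization, -0.0016 after GC correction). Ctnnbip1, an inhibitor of β-catenin binding to TCF, measured 9.48 and 9.43 FPKM in the controls, against 10.2 and 11.5 FPKM in Tbx20_OE (log2 0.17, standard error 0.21). Tle1, a Groucho corepressor, had a log2 fold change of 0.15 that was 0.05 without control replicate 2 and -0.01 after median centring.

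Of 12 genes known as β-catenin targets in other tissues, 3 reached the filter, and Lef1, Sp5, Rnf43 and Notum were each at or below 0.197 FPKM in all libraries. The rest below the filter were less scarce. Apcdd1 reached 1.01 FPKM in its highest library, and Nkd1, Nkd2, Tnfrsf19 and Znrf3 reached 0.581, 0.584, 0.560 and 0.466 FPKM. Ccnd1, which encodes cyclin D1 and has many other inputs, measured 8.25 and 4.53 FPKM in the controls, against 12.1 and 11.1 FPKM in Tbx20_OE. Both Tbx20_OE libraries were above both controls, with a log2 fold change of 0.82, a standard error of 0.30 and an unadjusted p of 0.0384 (limma adjusted p = 0.848). The log2 fold change of Ccnd1 was 1.19 without control replicate 1 and 0.44 without control replicate 2. Ccnd1 is among the higher genes selected by the authors, whose deposited table gave 9.98 FPKM for control and 16.0 FPKM for Tbx20_OE (cuffdiff q = 0.999). Myc went the other way and measured 2.50 and 1.73 FPKM in the controls, against 0.820 and 1.58 FPKM in Tbx20_OE (log2 -0.51, standard error 0.26, limma adjusted p = 0.848).

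The junction partners of β-catenin had 6 tested genes of 6, with 0 passing. Their median log2 fold change was 0.37, and 0.12 without control replicate 2, in which 5 of the 6 were lowest. The α-catenin gene Ctnna1 was the most abundant and measured 113 and 80.0 FPKM in the controls, against 107 and 134 FPKM in Tbx20_OE, and N-cadherin (Cdh2) measured 35.2 and 25.2 FPKM in the controls, against 33.2 and 51.7 FPKM in Tbx20_OE. Jup, which encodes plakoglobin, a close relative of β-catenin, measured 25.1 and 17.4 FPKM in the controls, against 25.2 and 31.3 FPKM in Tbx20_OE, so that Tbx20_OE replicate 1 was nearly level with control replicate 1. Ctnnd1, the p120-catenin gene, had a log2 fold change of 0.40. Without control replicate 2 that of Ctnnd1 was 0.20, while Ctnna1 went from 0.33 to 0.09, Cdh2 from 0.46 to 0.23 and Jup from 0.41 to 0.16. Ctnnal1, an α-catenin-like gene, was lower in both Tbx20_OE libraries and measured 9.06 and 11.6 FPKM in the controls, against 7.64 and 5.24 FPKM in Tbx20_OE (log2 -0.61, standard error 0.26, limma adjusted p = 0.848). The authors' deposited table also had Ctnnal1 lower, at 19.8 and 10.2 FPKM, without calling it significant (cuffdiff q = 0.721), and Ctnnal1 is among the lower genes the authors selected.

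Likeness of pattern over the 4 libraries was measured as the root mean square difference of log2(FPKM + 1) deviations from each gene's own mean, among the 116 other genes of the core set and the lists. Nearest to Axin2 were Fzd8 at 0.0591, Tcf7l1 at 0.0863 and Fzd7 at 0.0903. Fzd8 measured 1.62 and 1.31 FPKM in the controls, against 1.33 and 1.16 FPKM in Tbx20_OE. Nearest to Ctnnb1 were Fzd4 at 0.145, Csnk1a1 at 0.152 and Wif1 at 0.171, each of which was lowest in control replicate 2. Wif1, a secreted Wnt-binding inhibitor, measured 3.80 and 1.05 FPKM in the controls, against 3.67 and 3.03 FPKM in Tbx20_OE.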

How the data were processed

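RNA-seq libraries were made from total RNA of hearts, taken up in Trizol. The submitters' processing notes name TopHat2 2.0.13, Cufflinks 2.1.1 and mm10; no source used here gives the annotation, strand setting or mapping filters. The authors deposited FPKM per gene and library, a quantile-normalized FPKM table, and a cuffdiff comparison with FPKM per condition, p-values and q-values, per the file headers. Scores of 0 or 1 that mark the authors' selected genes, and hit counts with p-values from their deposited enrichment tables, served for description alone. Read counts are not used here, so depth is unknown and counting error cannot be given; FPKM summed to 452733 to 512225 per library.

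Libraries were grouped by title and genotype. For repeated symbols the entry with the highest mean was kept. The 4 genes with a failed estimate and 1 gene not matched in the files per library were left out; all 95720 values compared between the series table and the files matched. Values were analysed as log2(FPKM + 1), which understates changes of low genes, for genes with a mean of at least 1 FPKM, with limma 3.58.1 (trend, group as the only term) in R 4.3.3 and Benjamini-Hochberg adjustment over all 10513 tested genes at 0.05. The limma step was also run on simulated data with independent noise for each gene and library. No simulated library stood apart as control replicate 2 does, so that run does not show how the test performs with such a library. Each library came from its own heart, per the labels' protocols. File starts were printed with 1 added. Annotation, transcript length and GC content came from GENCODE M21 on GRCm38 (longest transcript per symbol), which 95.4% of tested genes had.

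The core genes, the 8 lists and the markers were chosen with earlier results of these data known. Named were the core genes, Tbx20, and from each list every gene that passed, the 2 most abundant, and up to 3 tested genes with groups that did not overlap, by size of change, plus the 3 genes nearest in pattern to Axin2 and to Ctnnb1. Gsk3a was named for its ratio to Gsk3b, and Cd44 as the remaining tested target gene, after its values were seen. Dkk3 and Tle2 were added after their values were seen, as were the β-catenin targets below the filter and the genes below the filter in the closing section. The alternatives covered pseudocount, filter, scaling, GC correction in 10 bins, source of the values, limma settings, each library left out and a replicate block. GC correction set the library medians level within each bin, so it also rescaled the libraries. Python 3.11.15 with pandas 2.3.3, numpy 2.4.6 and matplotlib 3.10.9 was used for the other steps.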

Additional observations from a re-analysis of the deposited data

How the results depend on the processing

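None of the 7 tested core genes passed under any alternative that kept all 4 libraries. With 1 library left out between 0 and 1 core genes passed (Ctnnb1, without control replicate 1), between 0 and 6 list genes, and between 6 and 1433 of all tested genes (1433 when control replicate 1 was left out, 22 for control replicate 2, and 11 and 6 for Tbx20_OE replicates 1 and 2). Over all genes 2 passed in the reported test, 1 with a pseudocount of 0.1, 1 with no filter, 1 with the files per library, 6 with a replicate block and 30 with a crossed replicate block, which was chosen after seeing the data. Same-numbered libraries deviated in opposite directions (correlation of -0.45 across genes) and are not shown to be pairs; the block changed no call of a core gene or list gene, which stayed at 0. Signs turned for values near 0 that were not called: after median centring Axin1 (-0.0072), Lrp6 (-0.0058), Ctbp1 (-0.13), Tle1 (-0.01376) and Wnt11 (-0.0455); with quantile normalization Ctbp1 (-0.0963) and Wnt11 (-0.0066); after GC correction Gsk3b (-0.0017), Lrp6 (-0.12), Ctbp1 (-0.0016) and Ryk (-0.0752). Leaving out 1 library gave ranges across 0 for Ctnnb1 (-0.0932 to 1.23), Axin1 (-0.0944 to 0.40), Lrp5 (-0.24 to 0.61), Tcf7l2 (-0.14 to 0.0461), Csnk1a1 (-0.0251 to 1.41), Csnk1g2 (-0.0705 to 0.0318), Ctbp1 (-0.0365 to 0.0935), Fzd4 (-0.0625 to 1.19), Dkk3 (-2.96 to 0.58), Wif1 (-0.15 to 1.08) and Tle2 (-0.87 to 0.24), and the cause was not tested. The Axin2 log2 difference was -0.45 with a pseudocount of 0.1, and from -0.28 to -0.02 with a library left out. Core genes measured near 1 FPKM, and Axin2 below it, cannot be given a counting error without read counts.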

Other observations

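Of the 52 pathway genes of the lists below the filter of 1 FPKM, 7 had both Tbx20_OE libraries above both controls and 5 had both below. No share over all genes below the filter was taken, so these counts alone say nothing particular to the pathway. Among the 29 of them with a mean from 0.1 to under 1 FPKM, 6 were above and 3 below, where all 3447 genes of that range gave 23.8% above and 8.73% below. The 6 were the Frizzled receptors Fzd2 and Fzd9, the casein kinase gene Csnk1g1, the TCF gene Tcf7, and Nkd2 and Znrf3, both negative regulators listed among the target genes. The 3 were Frat1 and Frat2, whose products bind Gsk3 and keep it from β-catenin, and the Wnt-binding inhibitor Sfrp5. Below 0.1 FPKM, where no share over all genes was taken either, Wnt1 was above, and Rspo3 and Kremen2 were below. Wnt1 was at 0 in both controls and at 0.016 and 0.037 FPKM in Tbx20_OE. Frat2 had 1.67 and 1.12 FPKM in the controls against 0.443 and 0.758 FPKM in Tbx20_OE, and Fzd2 had 0.488 and 0.680 FPKM against 1.24 and 1.17 FPKM. Nkd2 had 0.209 and 0.419 FPKM in the controls against 0.442 and 0.584 FPKM in Tbx20_OE, and Znrf3 had 0.289 and 0.249 FPKM against 0.316 and 0.466 FPKM. Sfrp5 had 0.463 and 1.19 FPKM in the controls against 0.383 and 0.192 FPKM, with control replicate 2 highest. No test was made of these genes alone.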
